A study of Mus musculus with 11 samples.

Results

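The cells described here were fibroblasts of mouse liver that held transcripts of Cxcl13 or Penk. They were chosen from measured values in both 10x Genomics libraries of the PF isolation (PF is the abbreviation in the labels), 1 from uninjured liver and 1 from liver after 6 weeks of carbon tetrachloride (CCl4). A cell was a member if its Cxcl13 and Penk UMIs (unique molecular identifiers, 1 per captured transcript) summed to at least 3, if it had fewer than 2 Pi16 UMIs, and if its Myh11 and Cnn1 UMIs summed to at most 1. Cells also needed at least 300 detected genes and at most 30% of UMIs from mitochondrial genes. The rule kept 889 of the 11385 PF cells that passed these filters, and of 30999 filtered 10x cells in all. They were compared with the other cells of the same library whose Cd34, Clec3b and Dpt UMIs summed to at least 4, called other fibroblasts below.

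All mice carried a Pdgfrb-BAC-eGFP transgene, in which the regulatory region of Pdgfrb, a receptor gene of mesenchymal cells, drives a green reporter, on a C57BL/6 background. They were males of 10 to 16 weeks, per the study's methods. The groups used were uninjured liver, liver after 6 weeks of CCl4, a toxin of hepatocytes near the central vein, and liver 14 days after bile duct ligation (BDL), which obstructs bile flow. Liver 72 h after CCl4, from a separate isolation of hepatic stellate cells, was used only for a count of such cells. Livers were minced and digested with pronase, collagenase and DNase, and GFP+ CD45- CD102- cells were sorted. Each 10x library pooled 3 mice of 1 condition, so that mice cannot be told apart within a library. The same isolation was also sequenced by Smart-seq2, which reads whole transcripts from 1 cell in each well of a plate.

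The 10x libraries held 25965670 UMIs (uninjured) and 31095219 UMIs (6 weeks of CCl4), with medians of 4300 and 5097.5 UMIs a cell. Members had medians of 4568 and 5986 UMIs, other fibroblasts 5028.5 and 6484. With 1 library for each condition there were no replicates, so 10x values carry no test. Intervals on them are exact 95% Poisson intervals for levels and exact Clopper-Pearson intervals for shares, and cover counting error only. Levels are UMIs summed over a class per 1000000 summed UMIs (CPM).

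Cxcl13 is a chemokine that draws B cells through the receptor Cxcr5 and is best known from the stroma of lymphoid follicles. Penk encodes proenkephalin, which peptidases cleave into opioid peptides, and it is also known as a transcript of some fibroblasts. Fibroblasts of the portal tract and of vessel sheaths form the matrix around bile ducts and vessels, and Pi16 marks an adventitial kind of fibroblast found in many organs. Mmp3 (stromelysin, a matrix protease) and Dpep1 (a membrane dipeptidase) are the other genes of the label under which these cells were proposed.

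The genes of the rule lie at chr5:95956951-95961068 on the plus strand (Cxcl13, ENSMUSG00000023078) and chr4:4133531-4138819 on the minus strand (Penk, ENSMUSG00000045573) of GRCm38. Mmp3 lies at chr9:7445822-7455975 and Dpep1 at chr8:123186242-123201812, both on the plus strand. Of the promoters of the rule genes only that of Cxcl13 is shown, from RefSeq, and Penk's is not shown here. The window holds the bases before the start site at chr5:95956689-95956938 of GRCm38.p6, plus strand, with its TATAAA motif in capitals.
Cxcl13 promoter: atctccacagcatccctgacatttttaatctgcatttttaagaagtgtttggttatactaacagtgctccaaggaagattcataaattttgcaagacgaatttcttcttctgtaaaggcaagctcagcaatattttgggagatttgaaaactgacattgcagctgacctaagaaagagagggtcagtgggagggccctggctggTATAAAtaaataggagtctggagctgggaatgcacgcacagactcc
Its first base lies 46 bases before the start site. Of 32851 RefSeq promoter windows, 12.4% held TATAAA on either strand. TGACTCA and TGACGTCA were not found in this window on either strand, and were held by 4.46% and 1.55% of windows.

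Members were 480 of 5737 uninjured PF cells (8.37%, interval 7.66 to 9.11) and 409 of 5648 PF cells after 6 weeks (7.24%, 6.58 to 7.95). Among fibroblasts (members and other fibroblasts) they were 480 of 4056 (11.8%, 10.9 to 12.9) and 409 of 2912 (14.0%, 12.8 to 15.4). The 3 libraries of the hepatic stellate cell isolation held 0 of 6850 (uninjured), 1 of 7310 (72 h after CCl4) and 0 of 5454 (6 weeks of CCl4) such cells. In the same order these 3 libraries held 13, 606 and 746 fibroblasts, so that the 0 of the uninjured one speaks of 13 fibroblasts only. The cells were thus found almost only in the PF isolation, which also held most of the fibroblasts. No replicate was at hand against which to set the shares of the 2 PF libraries.

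The data went against the label for Cxcl13. A Penk UMI was present in 478 of 480 uninjured members and in 409 of 409 members after 6 weeks, but a Cxcl13 UMI in only 40 (8.33%, 6.02 to 11.2) and 24 (5.87%, 3.80 to 8.61). Only 24 and 7 members had 3 or more Cxcl13 UMIs, and 474 of 480 and 408 of 409 members had 3 or more Penk UMIs. The Cxcl13 transcripts sat in a few cells, since 10 members held 755 of the 868 Cxcl13 UMIs of uninjured members, and 331 of 346 after 6 weeks. The members are therefore better described as Penk fibroblasts low in Pi16, with a small set that held much Cxcl13. Of all fibroblasts with 3 or more Cxcl13 UMIs, 24 of 62 in the uninjured library and 7 of 36 after 6 weeks were members. Penk UMIs per member had a median of 5 (quartiles 3 and 9, highest 61) in the uninjured library and 6 (4 and 9, highest 69) after 6 weeks.

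Members also carried the other fibroblast markers. The rule did not require it, yet 472 of 480 and 406 of 409 members reached the fibroblast sum of Cd34, Clec3b and Dpt. The 6 fibroblast markers (Clec3b, Dpt, Entpd2, Fbln2, Col15a1 and Gpx3) summed to 10720 CPM in members and 8414 in other fibroblasts of the uninjured library. Gpx3, the secreted glutathione peroxidase, was the most abundant, at 4579 against 2442 CPM, and at 4626 against 2636 CPM after 6 weeks. B cell and T cell markers were at 0.0 CPM in uninjured members, the 6 leucocyte markers summed to 11.5 CPM and the 6 endothelial markers to 10.1 CPM. Mesothelial markers summed to 78.5 CPM, of which Wt1, a transcription factor that is not confined to mesothelium, gave 78.0. Among the 7 hepatic stellate markers, which summed to 690 CPM in members and 694 in others, Ecm1 gave 566 CPM of the members' sum. At least 3 of the 6 leucocyte, mesothelial or endothelial markers were detected together in 0 members of either library. At least 3 of the 6 smooth muscle markers were detected in 71 of 480 uninjured members (14.8%, against 21.4% of other fibroblasts) and in 285 of 409 after 6 weeks (69.7% against 76.9%). At least 3 of the 5 pericyte markers were detected in 0 and 46 members (11.2% after 6 weeks, against 16.1%), and 3 of the 7 stellate markers in 29 and 22 (6.04% and 5.38%).

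Free RNA in the droplets also gives UMIs, so the smooth muscle cells of the same libraries, which should lack these genes, were read as a background (medians of 3263 and 4245 UMIs). These cells had at least 4 Myh11 and Cnn1 UMIs and a sum of Cd34, Clec3b and Dpt of at most 1. That limit leaves out cells with more free fibroblast RNA, and they had fewer UMIs than members, so the background shares can be too low. A Penk UMI was found in 4.92% and 12.8% of the smooth muscle cells, a Cxcl13 UMI in 0.638% and 0.764%, a Dpep1 UMI in 5.56% and 15.03%, and an Mmp3 UMI in 7.01% and 18.7%. Dpep1 had a UMI in 70.2% of uninjured members and 60.9% of other fibroblasts, and in 85.3% and 68.9% after 6 weeks. After thinning each cell to 2000 UMIs these shares were 53.3% against 41.9% and 65.7% against 48.4%, with 15 members and 135 others left out in the uninjured library, and 7 and 73 after 6 weeks. Mmp3 had a UMI in 32.5% of members and 28.3% of others, and in 47.4% and 48.1% after 6 weeks. Thinned in the same way, Mmp3 was detected in 26.0% against 19.7% and in 34.6% against 31.8%. These classes were set on the full UMIs. When cells were thinned before the rule, the level of Mmp3 was lower in members of both libraries (log2 ratios -0.49 and -0.47), so that no direction is read for Mmp3.

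Levels were compared next. Penk was at 1493 CPM in uninjured members and 316 in other fibroblasts, and at 1343 and 430 CPM after 6 weeks, as the rule requires. Cxcl13 was at 383 against 52.7 CPM, and at 140 against 50.8 CPM. Dpep1, which the rule did not use, was at 621 against 393 CPM (1.58 times) and at 867 against 559 CPM (1.55 times). Mmp3 was at 544 against 480 CPM (1.13 times) and at 1110 against 852 CPM (1.30 times). The plot of these levels shows the difference for Mmp3 as the smallest of the 4 in both libraries. It turned over under other settings of the rule (given with the settings below).

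**Figure D1:**
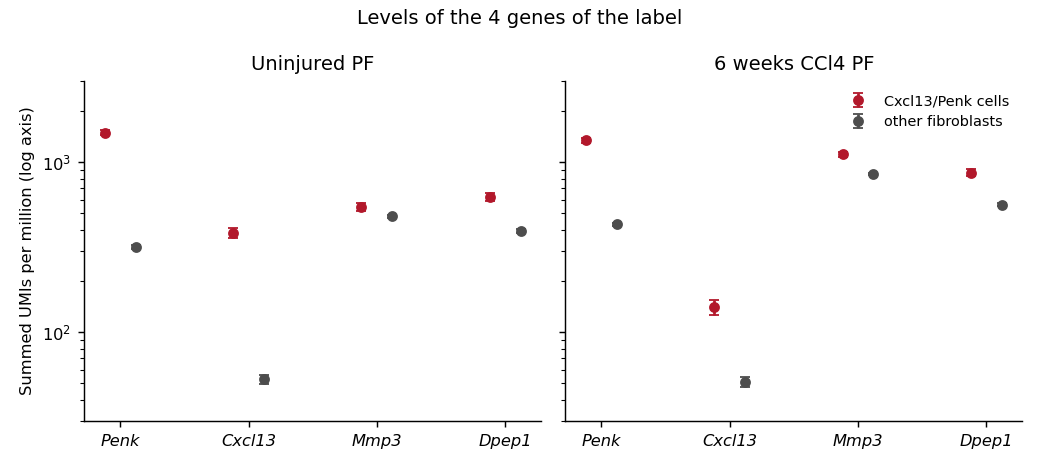
CPM (log axis) of Penk, Cxcl13, Mmp3 and Dpep1 in Cxcl13/Penk cells and other fibroblasts of each PF library, with exact Poisson intervals that cover counting error only. Penk and Cxcl13 chose the cells; Dpep1 was 1.58 and 1.55 times as high in members, and Mmp3 1.13 and 1.30 times.

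Cells just inside and just outside the rule are given as a description. Of the members, 135 uninjured cells and 72 after 6 weeks had exactly 3 Cxcl13 and Penk UMIs, and 177 and 115 cells with 2 such UMIs met the rest of the rule. Dpep1 was at 450 CPM just inside and 616 just outside the limit in the uninjured library, and at 598 and 610 CPM after 6 weeks. Gdf10, a ligand of the TGF-beta family, was at 350 and 252 CPM, then at 423 and 332. Cxcl12, the ligand of Cxcr4, was at 1792 and 1896 CPM, then at 1899 and 1833. Exactly 1 Pi16 UMI was present in 188 and 164 members.

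High Penk was not a property of Pi16-low fibroblasts alone. In the uninjured library 29.1% of fibroblasts low in Pi16 (480 of 1651) and 27.1% of those with 2 or more Pi16 UMIs (600 of 2213) had 3 or more Penk and Cxcl13 UMIs, counted among cells low in Myh11 and Cnn1. After 6 weeks both shares were 39.0% (409 of 1049 and 395 of 1013). The other fibroblasts were therefore a mixed class. Of them 64.7% and 56.7% had 2 or more Pi16 UMIs, 18.01% and 27.6% had the Penk and Cxcl13 sum of the members, and 192 (5.37%) and 850 (34.0%) had more than 1 Myh11 and Cnn1 UMI.

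Beyond the rule, 10 of the 2841 genes with at least 50 CPM in the higher class of both libraries (0.352%) were at least 2-fold higher in members in both libraries, and 22 (0.774%) at least 2-fold lower. The direction was the same in both libraries for 70.4% of these genes, and the median log2 ratio over them was -0.05 and -0.03. Both libraries share the rule, and its genes were left out. The 2-fold counts depended on the settings. The higher count was 4 with a Cxcl13 and Penk sum of at least 2, and 33 against others with no Cxcl13 or Penk UMI. The lower count was 11 against others low in Pi16 and in Myh11 and Cnn1.

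The 10 genes with the largest ratios had varied roles. Rspo3, a secreted amplifier of Wnt signalling, was at 130 against 50.9 CPM (2.56 times) and at 112 against 54.2 CPM (2.07 times). Fam150b, a ligand of the receptor kinases Alk and Ltk, was at 55.5 against 27.2 CPM and at 101 against 39.8 CPM (2.04 and 2.53 times). Prlr, the prolactin receptor, was at 73.6 against 26.6 CPM and at 75.1 against 32.4 CPM (2.77 and 2.32 times). These 3 genes bear on signals that cells send and receive. Fndc5, the precursor of irisin, was at 89.0 against 37.1 CPM and at 67.8 against 27.6 CPM. Gnai1, the alpha subunit of an inhibitory G protein, was at 135 against 52.0 CPM and at 143 against 67.0 CPM. Dlk1, a membrane protein related to Notch ligands, was at 62.6 against 29.9 CPM and at 94.1 against 22.4 CPM, the widest ratio (4.20 times) of the 10 genes. This level came from few cells, since a Dlk1 UMI was detected in 6.46% of uninjured members and 6.60% after 6 weeks, against 3.05% and 2.72% of others. Ggt5, which cleaves glutathione conjugates, was at 103 against 49.2 CPM and at 157 against 75.9 CPM. With Dpep1 and Gpx3 it belongs to the handling of glutathione. The other genes were Srpx (312 against 134 CPM and 342 against 169 CPM), AW112010 (247 against 122 and 265 against 123) and Fam198b (74.5 against 30.6 and 96.1 against 47.5).

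Because the rule joined high Penk with low Pi16, the genes were also read in 4 kinds of fibroblast low in Myh11 and Cnn1, by high or low Penk and Cxcl13 and by high or low Pi16 (480, 600, 1171 and 1613 uninjured cells, and 409, 395, 640 and 618 after 6 weeks). This split was made after the values were seen. Rspo3 went with Penk, at 130 CPM in members and 105 in Penk-high Pi16-high cells, but 35.4 and 37.3 CPM in Penk-low cells low and high in Pi16. After 6 weeks these levels were 112, 99.2, 37.5 and 30.8 CPM. Fam150b was also higher in Penk-high cells, at 55.5, 65.9, 12.5 and 21.7 CPM, lower in uninjured members than in Penk-high Pi16-high cells, and at 101, 79.1, 20.2 and 24.5 CPM after 6 weeks. Ggt5 was higher in Penk-high cells less widely, at 103, 72.4, 46.5 and 42.5 CPM, and at 157, 122, 63.0 and 53.0 CPM.

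Other members' genes went with low Pi16 instead. Fndc5 was at 89.0 CPM in members and 75.4 in Penk-low Pi16-low cells, against 28.5 and 18.2 CPM in Pi16-high cells high and low in Penk. Cxcl12 was at 2152 and 1875 CPM in Pi16-low cells and at 629 and 471 CPM in Pi16-high cells, and after 6 weeks at 1602 and 1643 against 793 and 449 CPM. Mfap5, a microfibril protein, ran the other way, at 362 and 381 against 1255 and 1773 CPM. Mmp3 was at 544 CPM in members but 882 in Penk-low Pi16-low cells, above the members, and at 291 and 344 CPM in Pi16-high cells, and after 6 weeks at 1110 and 1155 against 896 and 838 CPM. These levels are a description, and other named genes, such as Thbs4 and Acta2, followed neither Penk nor Pi16 alone.

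**Figure D2:**
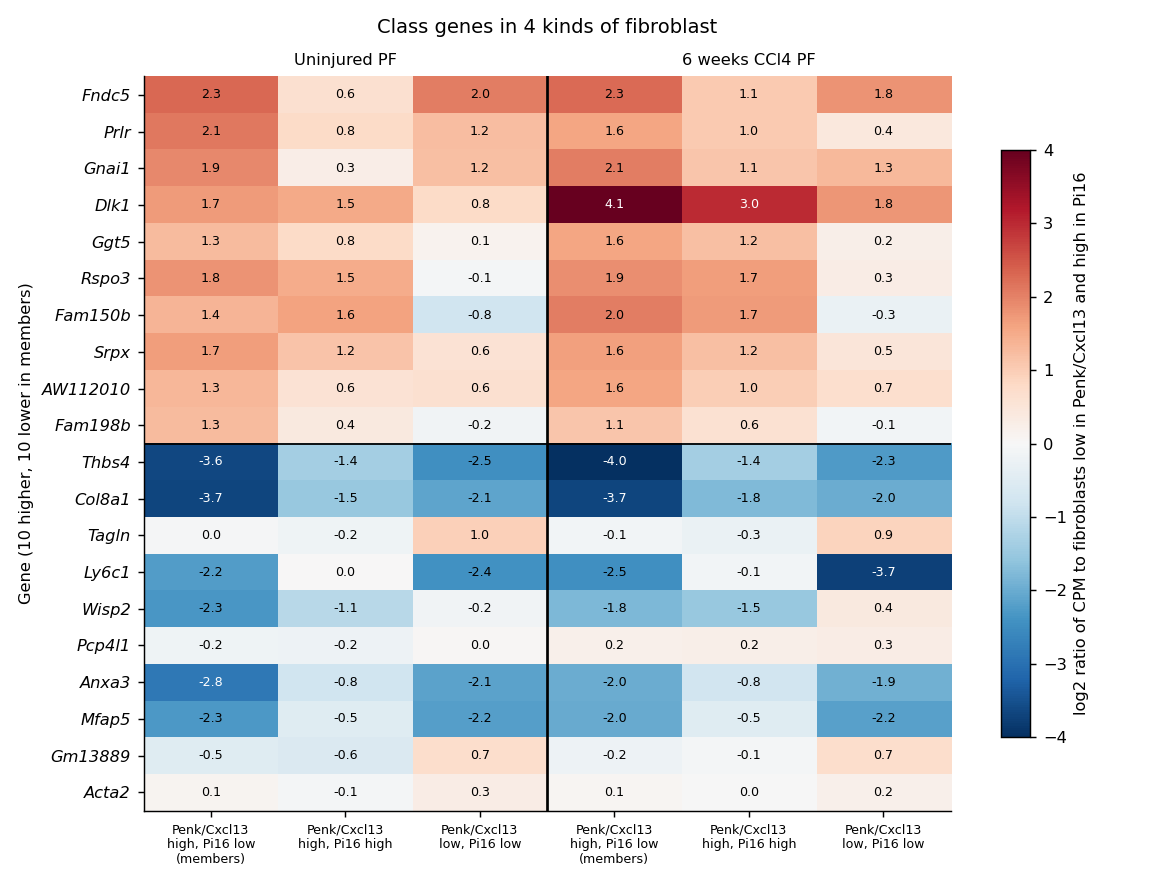
log2 ratio of CPM of the 20 genes with the largest ratios in 3 kinds of fibroblast to that in fibroblasts low in Penk and Cxcl13 and high in Pi16, for each PF library (colour and printed values). Rspo3 and Fam150b were high in both kinds with high Penk, Fndc5 and Gnai1 in both kinds with low Pi16, and Ly6c1 and Mfap5 were low in both kinds with low Pi16.

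The 10 genes with the lowest ratios included matrix and contractile genes. Thbs4, a matricellular thrombospondin, was at 29.1 against 223 CPM and at 21.8 against 161 CPM (0.13 and 0.14 times). Col8a1, a chain of the short-chain collagen VIII of vessel walls, was at 20.3 against 163 CPM and at 17.4 against 104 CPM (0.12 and 0.17 times). Wisp2 (CCN family) was at 15.9 against 69.8 CPM and at 24.6 against 85.0 CPM. Thbs4 was low wherever Penk was high or Pi16 low, at 29.1 CPM in members, 141 in Penk-high Pi16-high cells and 66.4 in Penk-low Pi16-low cells, against 365 CPM in Penk-low Pi16-high cells. Wisp2 was at 15.9, 37.1, 72.3 and 80.4 CPM in the same order. Ly6c1, a surface antigen of Pi16-high fibroblasts and endothelium, was at 59.5 against 208 CPM and at 37.2 against 133 CPM. Anxa3, an annexin, was at 28.6 against 142 CPM and at 51.7 against 130 CPM, and Mfap5 at 362 against 1220 CPM and at 348 against 849 CPM. Ly6c1 in both libraries and Mfap5 after 6 weeks turned higher in members once Pi16-positive cells were left out of the others.

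The contractile genes Acta2 and Tagln were lower in members. Acta2 (smooth muscle actin) was at 228 against 550 CPM and at 691 against 2206 CPM, and Tagln (transgelin) at 58.6 against 278 CPM and at 134 against 933 CPM. In uninjured other fibroblasts with more than 1 Myh11 and Cnn1 UMI, a limit that the members had to pass, Acta2 was at 4815 CPM and Tagln at 2949 CPM. Without such cells among the others, the log2 ratio of Acta2 was 0.00911 in the uninjured library and 0.0135 after 6 weeks, and that of Tagln was -0.37 and -0.41. Pcp4l1 (20.7 against 61.0 CPM and 40.8 against 135 CPM) and Gm13889 (38.3 against 93.5 and 73.5 against 241) belong to the same 10 genes. Without such cells among the others Pcp4l1 was at 0.0335 after 6 weeks (log2 ratio), and against Penk-high Pi16-high cells of the uninjured library Pcp4l1 was at 0.0374 and Gm13889 at 0.11, so that these differences turned over. The 6 smooth muscle markers summed to 502 CPM in members and 1243 in others, and to 1332 and 4541 CPM after 6 weeks, and the 5 pericyte markers to 151 and 128, and 286 and 712 CPM.

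Among pathways, the stroma cytokines of lymphoid tissue had 4 of 7 measured genes higher in members in both libraries and 2 lower, with median log2 ratios of 0.35 and 0.14. Here and below a measured gene had at least 50 CPM in the higher class of both libraries, rule genes are left out, and higher or lower means the direction in both libraries. Of all 2841 measured genes 26.1% were higher and 44.3% lower in this sense, which is the background for the counts of each list. Cxcl12 led this list, at 2152 against 911 CPM and at 1602 against 905 CPM, and Il33, an alarmin, was at 117 against 159 CPM and at 95.7 against 119 CPM. Among chemokines of fibroblasts 3 of 5 were higher and 0 lower, with Ccl11, which attracts eosinophils, at a level of 299 against 244 CPM and at 575 against 233 CPM. In the uninjured library the median farthest from 0 was that of universal and adventitial fibroblast genes, of which 1 of 12 was higher and 10 lower, 4 of them at least 2-fold, with median log2 ratios of -1.01 and -0.59. Low Pi16 was part of the rule, and Pi16 is a gene of that list.

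Of the 3 other measured genes of the opioid pathway 0 were higher and 3 lower, and Pam, which amidates peptides, was at 443 against 650 CPM and at 602 against 800 CPM. Pcsk1, the convertase that cleaves proenkephalin, was at 0.0 CPM in members of the uninjured library and at 0.40 CPM after 6 weeks, and the receptors Oprd1 and Oprm1 were at 0.0 CPM in both. A count of 0 in a class of this size speaks of these summed UMIs only. The matrix proteases and their inhibitors split evenly, with 4 of 8 higher and 4 lower. In the list of dipeptidases and glutathione genes 3 of 4 were higher and 0 lower, with median log2 ratios of 0.78 and 0.72, the highest of the pathways in both libraries.

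Matrix genes were read in 2 lists. Of the fibrillar collagens and their crosslinkers 2 of 11 were higher and 9 lower, with median log2 ratios of -0.14 and -0.08 beside -0.05 and -0.03 over all genes. The main chains differed little, with Col1a1 at 1438 against 1461 CPM and at 1528 against 1701 CPM. Fn1 (fibronectin) was at 200 against 379 CPM and at 136 against 291 CPM. Of basement membrane and elastic fibre genes 1 of 13 was higher and 7 lower, 3 of them at least 2-fold, with medians of -0.62 and -0.05. Elastin (Eln) was at 299 against 611 CPM and at 256 against 543 CPM, and fibrillin (Fbn1) at 132 against 311 CPM and at 132 against 268 CPM. Both elastic fibre genes were thus lower in the members of either library than in others of whom 64.7% and 56.7% were Pi16-positive. The part of low Pi16, which the rule set, in this difference was not tested.

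Complement and signalling genes were mixed. Of 10 complement genes 6 were higher and 3 lower, with C4b at 444 against 145 CPM and at 438 against 255 CPM, C2 at 90.4 against 39.7 CPM and at 111 against 68.7 CPM, and C3, the central component, at 1029 against 610 CPM and at 1245 against 903 CPM. Clu (clusterin), an inhibitor of the terminal complex, was at 78.0 against 129 CPM and at 74.3 against 224 CPM. Of the 10 Wnt and BMP modulators 4 were higher and 5 lower (medians -0.07 and -0.06). The Wnt inhibitor Sfrp1 was at 1245 against 555 CPM and at 1011 against 524 CPM, and its relative Sfrp4 at 45.4 against 97.7 CPM and at 19.4 against 72.5 CPM, so that the family did not move as one. Of 6 growth factors 3 were higher and 0 lower, with Igf1 at 774 against 538 CPM and at 850 against 621 CPM. Of 8 transcription factors 5 were higher and 1 lower, with Tcf21, a factor of visceral mesenchyme, at 171 against 113 CPM and at 82.0 against 58.0 CPM. Both measured acute phase and interferon genes were higher, and in the list of heat shock and immediate early genes 10 of 13 were so and 3 lower, with Fos at 5565 against 4366 CPM and at 4492 against 3764 CPM. The immediate early genes are also induced by tissue digestion, and the part of that in this difference was not tested. No gene of the cell cycle list reached the 50 CPM.

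The few members with 3 or more Cxcl13 UMIs (24 and 7 cells) differed from the members without a Cxcl13 UMI (440 and 385 cells). Hp (haptoglobin), an acute phase protein, was at 162 CPM against 1.94 CPM, and at 62.2 against 9.47 CPM after 6 weeks. C3 was at 2030 against 940 CPM and at 1907 against 1227 CPM. Dpt (dermatopontin), a gene of the fibroblast sum, was at 1596 against 2583 CPM and at 2487 against 2964 CPM. These levels rest on few cells and carry no test.

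Members lay nearer to each other than their share of all fibroblasts gives, on genes that the rule did not use. The rule also left out cells high in Pi16 or in Myh11 and Cnn1. Among fibroblasts low in these genes members were 29.1% (uninjured) and 39.0% (6 weeks). Whether members grouped beyond these limits of the rule was not tested. The rule genes, Mmp3 and Dpep1 were left out of the variable genes, and among the 30 nearest neighbours of a member 33.0% were members in the uninjured library, where members made up 11.8% of fibroblasts and 8.48% of the neighbours of others. After 6 weeks the share was 31.6%, against 14.0% of fibroblasts and 11.5% of the neighbours of others. One Leiden cluster of 1143 cells held 47.1% of members (41.04% of the uninjured ones and 54.3% after 6 weeks), against 6.07% and 20.3% of other fibroblasts. Members were 36.7% of it (419 cells), so that they were neither all of that cluster nor confined to it. With called doublets left out the cluster that held most members held 25.2% of them. A cluster of 116 cells led by the interferon-induced genes Ifit1, Ifit3, Ifit3b and Isg15 held 11.2% of members after 6 weeks and 0.417% of uninjured members. Of other fibroblasts it held 1.64% and 0.755%, as a description with no test. With called doublets left out, a cluster of 77 cells led by Ccl11 and Thbs1 held 11.6% of members after 6 weeks. The cluster led by Ifit1 and Ifit3 (37 cells) then held 0.247% of them. No interferon state of members is therefore read from these clusters. Cells called doublets were 16 members (3.33%) and 4 members (0.978%), against 6.26% and 6.91% of others. The PF libraries shared 45 cell barcodes, 0 of them among members.

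After 6 weeks of CCl4 the members differed from uninjured members by at least 2-fold in 33 of 3052 genes that were higher (1.08%) and 6 that were lower (0.197%), 1 library against 1. Rgs5, a regulator of G protein signalling known from pericytes, was at 9.26 CPM in uninjured members and 115 CPM after 6 weeks (12.5 times), beside 13.5 times in other fibroblasts. Angptl4, an inhibitor of lipoprotein lipase, went from 31.3 to 198 CPM (6.34 times, others 8.18). Sncg (gamma-synuclein) went from 10.6 to 69.1 CPM (6.53 times, others 5.10). The other fibroblasts thus differed between the libraries in much the same way. Acta2 went from 228 to 691 CPM (3.03 times, others 4.01), Hpgd, which breaks down prostaglandins, from 19.4 to 65.0 CPM (3.35 times, others 2.46), and Arf3, a small GTPase, from 35.7 to 112 CPM (3.13 times, others 3.18). Chst15, a sulfotransferase of chondroitin sulfate, and Bcam, a laminin receptor, went from 19.0 to 53.3 and from 22.9 to 61.8 CPM (2.81 and 2.70 times, others 3.31 and 4.09). The summed smooth muscle and pericyte markers given above were also higher after 6 weeks in both classes, and their part in Rgs5 and Acta2 was not tested.

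Of the genes lower after 6 weeks, Apod (apolipoprotein D, a lipid carrier) differed most between the classes, at 223 CPM in uninjured members and 52.9 CPM after 6 weeks, 0.24 times, beside 0.64 times in other fibroblasts. Scd2, a fatty acid desaturase, went from 117 to 45.6 CPM (0.39 times, others 0.42), Myoc (myocilin) from 177 to 82.4 CPM (0.47, others 0.55) and Tcf21 from 171 to 82.0 CPM (0.48, others 0.51). Gm26532, Vgll4, Neat1 and Ube2m went from 166 to 80.0, from 85.1 to 41.6, from 364 to 185 and from 82.0 to 42.0 CPM. In the plot of these ratios Apod lies farthest from its value in other fibroblasts. The difference between the classes was not tested in 10x.

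**Figure D3:**
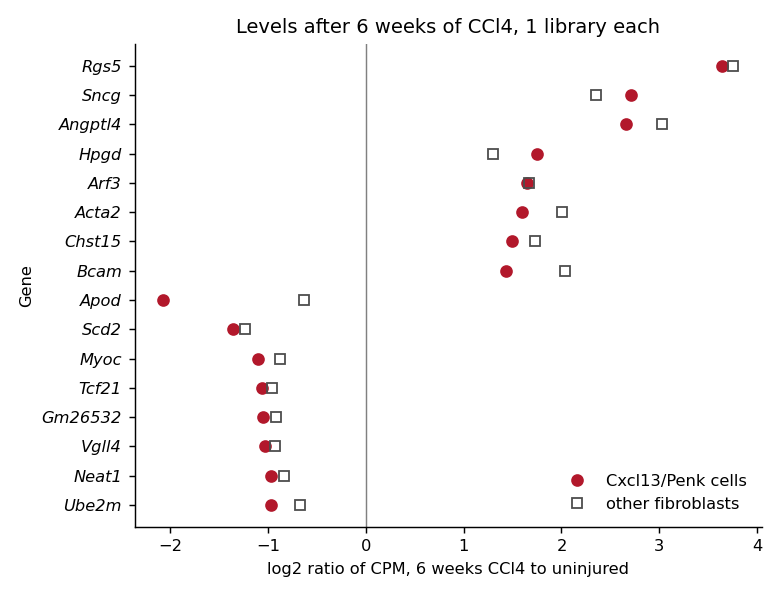
log2 ratio of CPM after 6 weeks of CCl4 to uninjured for the 8 genes with the largest ratio each way in Cxcl13/Penk cells (filled) and the same genes in other fibroblasts (open squares), 1 library each. Apod was at 0.24 times in Cxcl13/Penk cells and 0.64 times in other fibroblasts.

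The Smart-seq2 plates were not used to choose the members and gave replicates. Of 2292 wells with a cell, 2065 passed filters, with a median of 445569 reads (124186 to 657323), and 1700 of them lay on the 5 plates of PF isolation. The rule was carried over at 200 reads per 1000000 reads (RPM) for 1 UMI, so that a member well had at least 600 RPM of Cxcl13 and Penk, under 400 RPM of Pi16 and at most 200 RPM of Myh11 and Cnn1. Other fibroblast wells had at least 800 RPM of Cd34, Clec3b and Dpt and the same limit on Myh11 and Cnn1. This gave 189 member wells and 422 others. Reads were summed over the wells of 1 mouse on 1 plate, called a portion below, and 12 portions had at least 3 wells of each class (5 uninjured, 3 BDL, 4 CCl4). Member sums held 1077924 to 14648029 reads and other sums 5641426 to 23788344. Whether portions on different plates came from different mice is not stated, so p-values measure the spread between portions. Smart-seq2 has no molecular identifiers, so reads are not independent molecules.

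Penk dominated here too, since 166 of the 189 member wells (87.8%) had 600 RPM or more of Penk and 25 (13.2%) of Cxcl13. Of fibroblast wells low in Pi16, 37.1% were members, and 24.5% of those with 400 RPM or more of Pi16 had the same Penk and Cxcl13 sum. Member wells were 34.1, 55.6, 33.3, 54.0 and 11.5% of fibroblast wells in the uninjured portions of plates 1 to 5 (37.7% ± 18.03, SD, n = 5). In BDL portions they were 33.8, 11.1 and 38.2% (27.7% ± 14.5, SD, n = 3), and in CCl4 portions 30.2, 12.5, 17.1 and 48.7% (27.1% ± 16.2, SD, n = 4). The ranges overlapped, and neither injury differed from uninjured beyond the spread of portions, by -10.02 percentage points for BDL (exact permutation test, two-sided, p = 0.536) and by -10.6 for CCl4 (p = 0.333, both adjusted p = 0.536 over the 2 comparisons). Within plates the differences were -0.363, -44.4 and -15.8 points for BDL and -12.0 and 21.4 points for CCl4. BDL was thus lower on each of its plates, though hardly so on plate 1, and CCl4 had no common direction. The permutation test did not use the plates. In 2 further BDL portions, with 8 and 6 fibroblast wells, there were 0 member wells. Fewer cells of a kind and less RNA per cell cannot be told apart in such shares.

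Member wells and other fibroblast wells of the same portion differed in 8 of 14477 genes (0.0553%) by edgeR's quasi-likelihood test with the portion as a block and Benjamini-Hochberg adjustment, 3 higher (0.0207%) and 5 lower (0.0345%). At an unadjusted p under 0.05 there were 1159 genes, against 617 by the adjusted p of DESeq2, which shared all 8. The median log2 fold change was -0.51 over all genes and -0.15 over genes of at least 50 RPM, and changes are to be read relative to it. The count was sensitive to the portions and the rule, at 4 to 11 genes with 1 portion left out (4 without the second CCl4 portion of plate 3 or the uninjured portion of plate 4), 0 in uninjured portions only (edgeR, 499 at an unadjusted p under 0.05), 1 with RPM limits halved or doubled and 22 with Penk alone in the rule, a setting added after the data were seen. Markers of other cell kinds also differed, by median sums over portions. Other wells were higher for markers such as those of smooth muscle (743 against 312 RPM), cholangiocytes (134 against 19.7) and mesothelium (249 against 190). Member wells were higher for pericyte (579 against 471 RPM) and leucocyte markers (59.9 against 36.9). The part of such transcripts in the class differences was not tested.

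Gsn (gelsolin), which severs actin filaments, was higher in members. In uninjured portions it was at 26398, 10253, 29328, 37774 and 20716 RPM in members of plates 1 to 5 and at 14869, 7961, 20269, 24760 and 10195 RPM in others. BDL portions had 15052, 11864 and 30090 against 9890, 5398 and 17677 RPM, and CCl4 portions 8324, 12240, 1391 and 16548 against 6797, 6978, 1421 and 9142 RPM. Its level spread widely between portions, but members were higher than others in 11 of 12, by 0.69 ± 0.08 on the log2 scale (SE, edgeR adjusted p = 0.000536). Dcn (decorin), a small proteoglycan that binds collagen and TGF-beta, was at a median of 32763 RPM (22299 to 52566) in members and 22768 (17510 to 39098) in others, higher in 11 of 12 portions by 0.45 ± 0.08 (adjusted p = 0.0234). Ccdc80, a secreted matrix protein, was higher in 12 of 12 portions, at a median of 4903 RPM (2099 to 6615) against 3367 (1114 to 5026), by 0.58 ± 0.09 (adjusted p = 0.0117).

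Bgn (biglycan), a close relative of decorin, went the other way. Uninjured members had 6980, 5117, 4683, 4423 and 6245 RPM and others 10291, 9166, 10224, 7818 and 9683 RPM. BDL portions had 3552, 3891 and 7096 against 7117, 9341 and 10828 RPM, and CCl4 portions 8480, 7738, 4713 and 6523 against 11087, 11007, 7069 and 9234 RPM. The uninjured groups did not overlap, and Bgn was lower in 12 of 12 portions by 0.70 ± 0.08 (log2 fold change -0.70, edgeR adjusted p = 0.000394). Eln, the elastic fibre gene that was also low in 10x, was at 348, 159, 313, 448 and 553 RPM in uninjured members and 1111, 422, 1769, 1251 and 1500 RPM in others. It was lower in 11 of 12 portions (log2 fold change -1.70 ± 0.29, adjusted p = 0.0234), with plate 5 CCl4 2 the exception, at 398 against 349 RPM. Mfap4, a microfibril-associated protein of elastic fibres, was lower in 11 of 12 portions, at a median of 1661 RPM (508 to 2318) against 3477 (1256 to 4337) (-1.03 ± 0.18, adjusted p = 0.0361).

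Crispld2, a secreted protein, was lower in 12 of 12 portions, at a median of 512 RPM (187 to 974.8) against 1104 (410 to 1343) (log2 fold change -1.06 ± 0.15, edgeR adjusted p = 0.00553). Anxa8, an annexin, had 1 read in all member wells and 11086 reads in other wells, which lay at 0 to 220 RPM (adjusted p = 0.00303). The ratio of other to member wells was 5150 with a counting interval of 924 to 203415, which shows how little the single read fixes it. Over 28 alternative fits Bgn and Gsn kept an adjusted p under 0.05 in 25 each, Anxa8 in 21, Crispld2 in 20, Ccdc80 in 19, Eln in 12, Dcn in 10 and Mfap4 in 7. The plot of the 8 genes by portion shows that portions differed from each other more than the classes did for Gsn and Dcn.

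**Figure D4:**
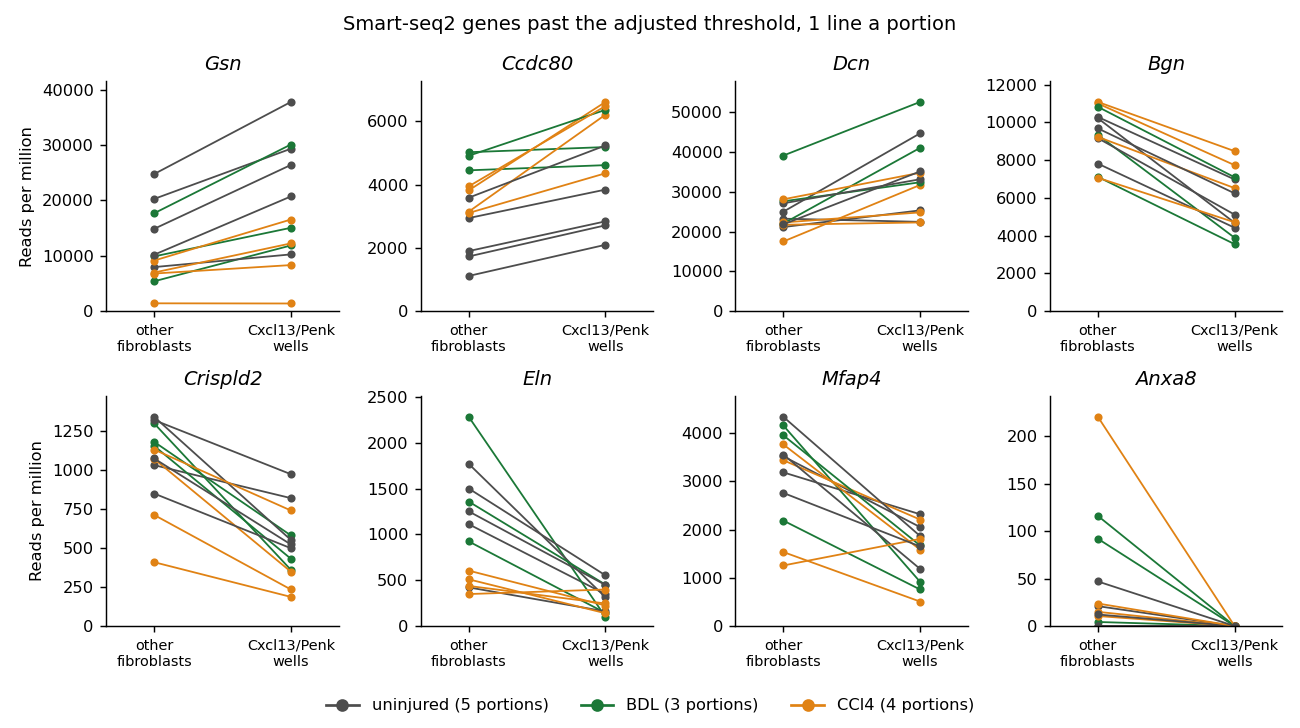
RPM of the 8 genes past the adjusted threshold in other fibroblast wells and Cxcl13/Penk wells, 1 line for each of 12 portions, coloured by condition. Ccdc80 was higher and Bgn and Crispld2 were lower in Cxcl13/Penk wells in 12 of 12 portions.

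In 10x these genes behaved unequally. Eln was at 0.49 times the level of other fibroblasts in uninjured members and 0.47 times after 6 weeks, Mfap4 at 0.57 and 0.67 times and Bgn at 0.75 and 0.81 times. Crispld2 was at 0.81 times in uninjured members but 1.22 times after 6 weeks. Gsn was at 0.97 and 1.19 times, Ccdc80 at 1.00 and 1.22 times and Dcn at 1.14 and 1.32 times. Anxa8 was at 0.24 and 0.058 times, on 4 and 1 member UMIs. Elastin, Mfap4, biglycan and Anxa8 transcripts were therefore lower in both 10x libraries, Dcn was higher in both, and Gsn, Ccdc80 and Crispld2 were above 1.1 times only after 6 weeks. The compared classes were not the same, since the limit on Myh11 and Cnn1 was set for Smart-seq2 others and not for 10x others. Smart-seq2 others still held smooth muscle markers, at a median sum over portions of 743 RPM against 312 in members.

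The 10 genes each way with the largest 10x ratios between classes had the same direction in the plates but for Fam198b. They did not pass the test. Of the 10 genes higher in 10x members 9 had a log2 fold change above 0, where 22.7% of all tested genes and 32.4% of those at 50 RPM or more did, and 3 had an unadjusted p under 0.05. These were Rspo3 (median 63.3 against 11.5 RPM, log2 fold change 2.05 ± 0.88), Ggt5 (155 against 74.4 RPM, 1.16 ± 0.43) and AW112010 (175 against 117 RPM, 0.62 ± 0.28), with edgeR adjusted p = 0.576, 0.515 and 0.611. Fam198b was at -0.20, and Prlr and Dlk1, at 0.17 and 1.30, turned below 0 under other settings. All 10 genes lower in 10x were below 0, 8 of them at an unadjusted p under 0.05 and 0 past the adjusted threshold. Thbs4 was at a median of 0.0 against 21.9 RPM (higher in members in 1 of 12 portions) and Wisp2 at 0.0684 against 74.1 RPM, with adjusted p = 0.303 and 0.212.

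Of the genes of the label, Dpep1 was higher in 9 of 12 portions, at a median of 1677 against 1298 RPM (0.36 ± 0.12, edgeR adjusted p = 0.463). Mmp3 was at a median of 742 against 580 RPM, with a log2 fold change of -0.43 ± 0.93 (adjusted p = 0.910). Neither gene of the label beyond the rule was thus shown to differ. Cxcl12 (0.46 ± 0.17, adjusted p = 0.496) and C3 (0.39 ± 0.12, adjusted p = 0.339) leaned higher and missed the threshold. Of all 3631 tested genes at 50 RPM or more 32.4% were above 0 (median -0.15), against which the lists are read. Among lists at this level, 2 of the 15 basement membrane and elastic fibre genes passed the test, both lower, with 12 of 15 below 0 and a median of -0.38. Of fibrillar collagens 10 of 11 were below 0 (median -0.36) with 0 called, and of dipeptidase and glutathione genes 4 of 4 were above 0 (median 0.38) with 0 called. All other lists had 0 called genes.

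The class difference was not shown to differ with injury. By edgeR 0 of 14477 genes passed for BDL against uninjured (320 at an unadjusted p under 0.05, 101 by DESeq2) and 0 for CCl4 (212 unadjusted, 66 by DESeq2). Within member wells, BDL and uninjured portions differed in 0 of 12649 genes (281 unadjusted, 221 by DESeq2). On simulated data this fit recovered 0% of planted 4-fold changes and 30.3% of 16-fold ones, so a count of 0 can leave large changes unseen. For CCl4 against uninjured these shares were 1.49% and 25.8%. CCl4 and uninjured member wells differed in 3 genes (0.0237%, 395 unadjusted, 275 by DESeq2), the rule gene Cxcl13 left out. These counts were unstable to single portions, at 0 to 56 genes for BDL (56 without the BDL portion of plate 4) and 1 to 36 for CCl4 (36 without the uninjured portion of plate 4, 1 without the first CCl4 portion of plate 3). Of the genes named for CCl4 in 10x, 5 of 8 higher genes and 3 of 7 lower ones that were measured had the same direction here, and 0 passed. Acta2 was the closest, at a log2 fold change of 2.51 ± 0.93 (edgeR adjusted p = 1.0).

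The 3 genes were Saa3, Hp and Cd74. Their p-values set unlike wells side by side. Of the CCl4 member wells 20 passed the rule through Cxcl13 with no Penk read, and all 76 uninjured member wells passed it through Penk. The p-values are therefore not read as a change within 1 kind of cell, and the 2 kinds of well are given below. Saa3 (serum amyloid A3), an acute phase protein made by many kinds of cell, was at 18847, 7331, 14239 and 2679 RPM in members of the 4 CCl4 portions. It was at 0, 0, 0.300, 0.0742 and 2.59 RPM in uninjured members and 0, 0 and 14.3 RPM in BDL members, so that the CCl4 portions did not overlap with the rest (edgeR adjusted p = 0.00619). Other CCl4 fibroblast wells were also high, at 7759, 2717, 4237 and 10455 RPM. Hp was at 903, 155, 592 and 223 RPM in CCl4 members and at 0, 0, 0.451, 0 and 0 RPM in uninjured members (adjusted p = 0.0478). Cd74, the invariant chain of MHC class II, was at 811, 64.6, 951 and 574 RPM against 0, 0, 0.150, 0 and 0.369 RPM (adjusted p = 0.0478). In BDL members Hp was at 101, 0 and 47.8 RPM and Cd74 at 0, 366 and 1.09 RPM, so that Cd74 overlapped with the CCl4 portions. Other CCl4 fibroblast wells had Hp at 1216, 152, 778 and 1259 RPM and Cd74 at 75.5, 303, 927 and 662 RPM. The uninjured sums were a few reads, 10 for Saa3, 3 for Hp and 2 for Cd74, so that their fold changes are not fixed by these data. None of these 3 genes was higher by more than 1.2 times in 10x members after 6 weeks, with Saa3 at 0.44 CPM in uninjured members and 0.40 after 6 weeks (1 UMI each), Hp at 11.5 and 11.3 CPM and Cd74 at 3.09 and 3.63 CPM. In Smart-seq2, counting intervals on the ratio of summed reads were 21100 to 80919, 2134 to 30249 and 3443 to 102713.

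Saa3 was high in member wells of a second kind. The CCl4 members were 30 wells led by Penk and 20 led by Cxcl13, and 0 wells reached 600 RPM of both. Penk was at 0 in all 20 Cxcl13-led wells, and Saa3 reached 600 RPM in 20 of 20 of them (median 30555 RPM) but in 0 of 30 Penk-led wells. Uninjured members were all led by Penk (76 wells), and BDL members by Penk in 58, by Cxcl13 in 3 and by both in 2. The Cxcl13-led wells were 8 of 16, 1 of 3, 9 of 12 and 2 of 19 member wells of the 4 CCl4 portions, and so were present in each of them. This split was made after the values were seen and uses a gene of the rule, so it is a description.

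The kinds differed across markers. Dpep1 had a median of 2258 RPM in the 30 Penk-led wells and 0 in the Cxcl13-led wells, and Gdf10 2168 RPM and 0. Dpt reached 600 RPM in 28 of 30 Penk-led wells and 1 of 20 Cxcl13-led wells. Clu reached it in 1 of 30 and 20 of 20 (median 3783 RPM), and C3 had medians of 10173 and 25017 RPM. Lcn2 (lipocalin 2), an acute phase protein that binds siderophores, had a median of 2005 RPM in Cxcl13-led wells and 0 in Penk-led wells. Mmp3 had a median of 0 in both kinds, and reached 600 RPM in 9 of 30 Penk-led and 0 of 20 Cxcl13-led wells. The Cxcl13-led CCl4 wells thus lacked the other genes of the label, but most Penk-led wells also lacked high Mmp3. The 6 fibroblast markers were lower in them too, at a median sum of 2540 against 7581 RPM, with 3 or more of the 6 at 200 RPM or more in 9 of 20 Cxcl13-led and 24 of 30 Penk-led wells. Outside that list, Col1a1 reached 600 RPM in 19 of 20, Cd34 in 15 and Pdgfra in 14. Wt1 reached 600 RPM in 8 of 20 and Msln in 1 of 20, 1 well held 3 or more mesothelial markers at 200 RPM or more, 1 well held 3 or more cholangiocyte markers (highest sum 4523 RPM), and 0 wells held 3 or more leucocyte, endothelial, B cell or T cell markers. The 6 leucocyte markers, of which Cd74 is one, summed to a median of 287 RPM in Cxcl13-led wells and 0 in Penk-led wells, but Ptprc and Tyrobp, defining leucocyte genes, had a read in 0 of the 20 wells. Cr2 and Fcer2a, markers of follicular dendritic cells, also had a read in 0 of 20. The 6 mesothelial markers summed to medians of 664 and 0 RPM, and the part of mesothelial cells in the result was not tested. Of other CCl4 fibroblast wells 55 of 136 had 600 RPM or more of Saa3. Clu reached 600 RPM in 51 of these 55 wells and in 29 of the other 81.

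With Penk alone in the rule, CCl4 and uninjured member wells differed in 0 genes by edgeR (203 at an unadjusted p under 0.05), with log2 fold changes of 3.83 for Saa3 and 5.0005 for Hp. This rule left the second CCl4 portion of plate 3 with 2 member wells, under the minimum of 3, so that the portions changed together with the wells. This alternative was added after seeing the data. The plot of member wells shows both kinds along separate axes.

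**Figure D5:**
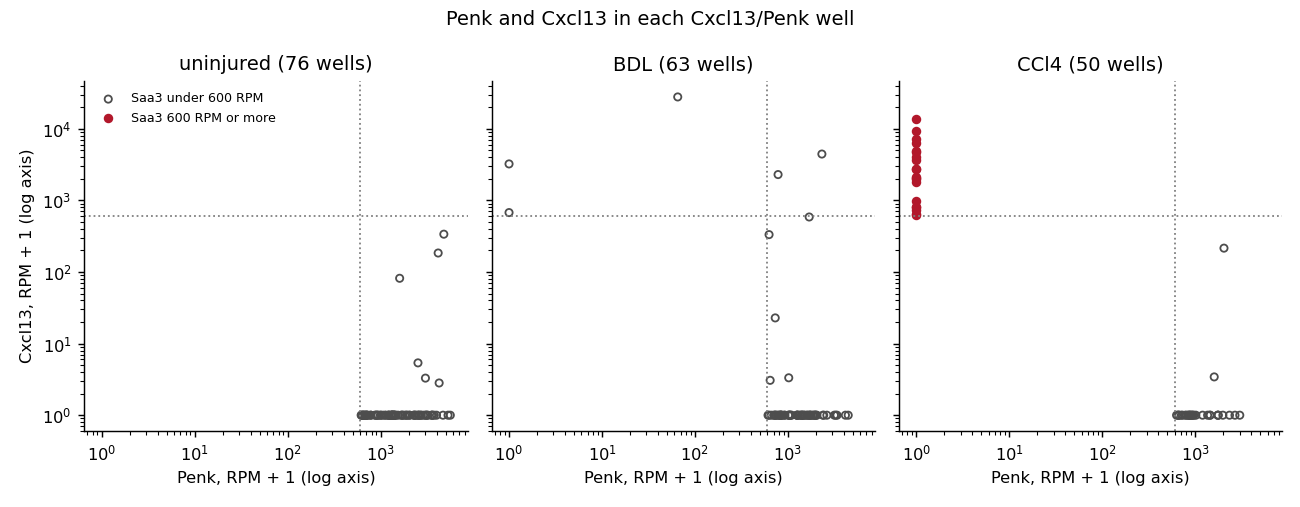
Cxcl13 against Penk in each Cxcl13/Penk well (RPM plus 1, log axes) by condition, filled where Saa3 was at 600 RPM or more, with dotted lines at 600 RPM. After CCl4 20 wells with Cxcl13 had no Penk read and all were filled, and the 30 wells with Penk were all open.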

How the data were processed

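Per the labels and the study's methods, the authors aligned 10x libraries (3' v2) with Cell Ranger 2.1.0 and Smart-seq2 plates with STAR to mm10, and deposited raw counts of UMIs or reads per gene. Both kinds of file were used as counts. Members, gene lists and tests were chosen with earlier results of these data known. In 10x, UMIs were summed over each class and given as CPM, with 95% intervals. In Smart-seq2, 492 rows that repeat a gene symbol were summed, and reads were summed over each portion and class. edgeR 4.0.16 (quasi-likelihood, filterByExpr, TMM) tested classes with the portion as a block and conditions with plate as a term, with Benjamini-Hochberg adjustment at 0.05, and DESeq2 1.42.0 was the alternative. Classes of a portion came from the same mouse and plate, which gives the pairing. Their deviations correlated at 0.0467 to 0.473 over 3927 genes, each above the highest value with another portion. Clusters were Leiden clusters (leidenalg 0.10.2). R was 4.3.3 and Python 3.11.15. Scripts were tested on simulated data. A sixth plate, for which the isolation of each mouse is not given, was left out of tests.

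Named genes were the genes of the rule and the label, the 10 genes each way with the largest 10x ratio (at least 50 CPM in the higher class, same direction in both libraries), the genes past the Smart-seq2 threshold, and the 8 genes each way with the largest 10x ratio after CCl4. Members of the fixed lists, the split by Pi16 and the 2 kinds of CCl4 well were added after their values were seen. Counts without strand information leave reads of overlapping genes uncertain.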

Additional observations from a re-analysis of the deposited data

Results flagged for a closer look

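In 31 groups of portions tested for a sample far from the others, 4 had one. The limit used gives about 1 in 20 groups by chance for normally spread values only. A group with 1 portion above 0 and the others at 0 passes it at any value, so no excess is read from this count. All 4 were the highest of the 5 uninjured portions in member wells. Those of Anxa8, Saa3 and Hp rested on few reads. Anxa8 was at 0.0742 RPM where the other 4 portions had 0, Saa3 at 2.59 RPM with the next at 0.300, Hp at 0.451 RPM where the others had 0, and Cxcl13, a gene of the rule, at 22.6 RPM (305 reads) with the next at 0.369. On the sixth plate, which entered no comparison, 1 of the 3 uninjured mice held 6 member wells among 15 fibroblast wells, a share of 40.0%, within the range of the other uninjured portions.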

How the results depend on the processing

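With 1 library for each 10x condition, pooled mice and Smart-seq2 sums of as few as 3 wells, depth and number of wells were the limits, and low genes such as Prlr and Dlk1 had wide errors in Smart-seq2. Alternatives marked as added were chosen after seeing the data, and the causes of the differences below were not tested. Of 660 values of 10x classes 420 moved by less than their counting interval, 217 by more and 23 turned direction, and of 784 Smart-seq2 class values 671 kept direction and side of the threshold, 6 newly passed it, 85 no longer passed it and 22 turned direction.

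Members were 16.3% and 18.1% of fibroblasts (uninjured and 6 weeks) with a sum of at least 2, 6.66% and 9.48% with at least 5, and 8.34% and 12.2% when cells were thinned to 2000 UMIs before the rule, and 15.8% after 6 weeks in cells of 3000 to 8000 UMIs. Genes 2-fold higher were 4 with a sum of at least 2, 5 after thinning within the raw classes (added), 33 against others with no Cxcl13 or Penk UMI, and 4 against Penk-high Pi16-high cells (added). Genes 2-fold lower were 11 against others low in Pi16 and in Myh11 and Cnn1 (added). The largest share of members in 1 cluster was 40.0% with 10 principal components, 53.5% at a resolution of 0.4 and 25.2% without called doublets.

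The log2 ratio of Mmp3 turned to -0.22 (uninjured) with a sum of at least 5, to -0.49 and -0.47 (uninjured and 6 weeks) after thinning before the rule, to -0.64 (uninjured) without Pi16-positive others, to -0.093 (uninjured) against others with no Cxcl13 or Penk UMI, and to -0.70 and -0.058 against others low in Pi16 and in Myh11 and Cnn1. Without Pi16-positive others Ly6c1 turned to 0.21 and 0.95 and Mfap5 to 0.38 after 6 weeks, and against others low in Pi16 and in Myh11 and Cnn1 they turned to 0.16 and 1.28, and to 0.15 after 6 weeks. Against others low in Myh11 and Cnn1 (added) Acta2 was at 0.00911 and 0.0135 and Pcp4l1 at 0.0335 after 6 weeks. Against Penk-high Pi16-high cells Fam150b was at -0.25, Pcp4l1 at 0.0374 and Gm13889 at 0.11 (uninjured), Tagln at 0.14 and 0.16, and Acta2 at 0.17 and 0.0984.

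In Smart-seq2 DESeq2 called 617 genes between classes, 101 and 66 in the interactions with BDL and CCl4, and 221 and 275 between BDL or CCl4 and uninjured members. Without the portion as a replicate block 6 genes differed between classes, 2 of them shared, and 0 and 0 in the interactions. Without the filter on low counts 13 genes differed between classes, 43 for BDL and 44 for CCl4. Between classes 1 gene was called with RPM limits halved, 1 with limits doubled, 0 in uninjured portions only (edgeR, 499 at an unadjusted p under 0.05), 5 against other wells low in Pi16 (added, with 1 in the interaction with BDL), and 22 with Penk alone in the rule (added, with 2 in the interaction with CCl4 and 0 for CCl4 against uninjured). With at least 5 wells a portion 3 genes were called for BDL and 8 for CCl4, and 9 for CCl4 without the plate term. Between classes 3 genes were called without plate 3 and 2 without plate 4. Leaving out 1 portion gave 4 to 11 genes between classes (4 without plate 3 CCl4 2 or plate 4 Uninjured, 5 without plate 1 BDL 1 or plate 2 Uninjured), 0 to 56 for BDL, 1 to 36 for CCl4 and 0 in both interactions. For BDL it was over 50 without either portion of plate 4, and for CCl4 at least 25 without either portion of plate 4 or of plate 1. The share of member wells moved between -16.6 and -1.72 points for BDL and between -17.8 and -5.70 for CCl4, and averaged 4.70 points for CCl4 within plates.

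Single genes that turned over between Smart-seq2 classes were Fam198b, Prlr and Dlk1. Fam198b was at 0.20 with limits halved, 0.41 with at least 5 wells, 0.87 in uninjured portions, 0.0617 against others low in Pi16, 0.38 with Penk alone, 0.0367 and 0.23 without plates 1 and 3, and -0.56 to 0.17 in the leave-one-out fits. Prlr was at -0.0562 with limits halved, -0.49, -0.52 and -1.12 without plates 2, 3 and 4, and -0.67 to 0.97 in the leave-one-out fits. Dlk1 was at -0.088 with limits doubled, -1.64 in uninjured portions and -0.51 without plate 5.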
